A study of Homo sapiens with 8 samples.

Results

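The cytosolic ribosomal protein genes of NCCIT cells were followed through the depletion of each of the 3 TET enzymes. NCCIT is a human embryonic carcinoma cell line, and TET1, TET2 and TET3 are the dioxygenases that oxidize 5-methylcytosine to 5-hydroxymethylcytosine. Cells received a pool of small interfering RNAs against TET1 (siTET1), TET2 (siTET2) or TET3 (siTET3), or a non-targeting control siRNA (siNTC), and RNA from 2 samples of each of these 4 groups was hybridised to Affymetrix Human Gene 1.0 ST arrays, 8 arrays in all. Depletion by siRNA was transient and partial, all groups came from 1 cell line, and each transfection, siNTC included, exposed cells to siRNA. Members were found by symbol alone: a gene counted if its name had the form of a cytosolic ribosomal protein gene and a transcript cluster of the array carried that symbol and no other. This gave 100 clusters of 65 genes among the 18417 genes measured, namely 34 genes of the large subunit, 21 of the small subunit, the P-stalk genes RPLP1 and RPLP2, and 8 paralogs of ribosomal protein genes (RPL3L, RPL7L1, RPL10L, RPL22L1, RPL26L1, RPL39L, RPS27L and RPSA2). Of 85 protein-coding genes with such a name in RefSeq, 20 are not covered, because 11 had clusters with several symbols only and 9 had no named cluster.

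A ribosome is built from ribosomal RNA and about one copy of each ribosomal protein, so cells normally make these proteins in proportion to one another, and proteins made in excess are degraded. Their messenger RNAs are among the most abundant in a growing cell. Most begin at a C followed by an unbroken run of pyrimidines, the 5′ terminal oligopyrimidine (TOP) tract, through which the mTOR pathway and LARP1 regulate their translation. Several genes have paralogs that are made in few tissues and can take the place of the usual protein.

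The sequences around the start sites of the members were read for this tract. Promoter entries of RefSeq (GRCh38.p14) matched 54 of the 65 members, with 65 entries of 300 bases each. The windows printed here run from 10 bases before the RefSeq start to 20 bases from it, and they were chosen to set 4 genes that rose (RPS13 to RPLP2), 5 that fell (RPS9 to RPL4), 1 that did not pass the test (RPL34) and 4 paralogs side by side. Capitals mark the longest run of C and T that reached into the stretch from 5 bases before the start to 11 from it, where it had 6 or more bases. It need not include the start base itself, and in RPL4 it begins at base 6 of the transcript. Where a gene had several entries, the entry with the longest run was the one printed.
RPS13, chr11:17077648-17077677, minus strand: ctctcgCTCTCCTTTCgttgcctgatcgcc
RPL29, chr3:51995876-51995905, minus strand: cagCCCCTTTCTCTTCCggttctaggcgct
RPL27A, chr11:8682782-8682811, plus strand: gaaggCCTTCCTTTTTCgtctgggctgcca
RPLP2, chr11:809957-809986, plus strand: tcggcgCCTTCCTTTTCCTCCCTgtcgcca
RPS9, chr19:54200848-54200877, plus strand: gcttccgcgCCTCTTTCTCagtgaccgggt
RPS16, chr19:39435930-39435959, minus strand: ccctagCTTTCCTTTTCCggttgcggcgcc
RPL26, chr17:8383174-8383203, minus strand: gcgtgtagTTCTCTTCCCTTTTgcggccat
RPLP1, chr15:69452808-69452837, plus strand: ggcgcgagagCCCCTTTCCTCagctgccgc
RPL4, chr15:66504836-66504865, minus strand: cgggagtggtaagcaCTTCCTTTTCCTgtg
RPL34, chr4:108620566-108620595, plus strand: CTTTTTTCTTCCTCTTCCggggacgttgtc
RPL7L1, chr6:42879606-42879635, plus strand: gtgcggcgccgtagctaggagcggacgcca
RPS27L, chr15:63157458-63157487, minus strand: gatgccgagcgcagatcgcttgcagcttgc
RPL10L, chr14:46651762-46651791, minus strand: gtagttaagagagcgcattttgacttcgag
RPL22L1, chr3:170870176-170870205, minus strand: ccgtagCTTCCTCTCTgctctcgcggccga
Runs span 10 to 17 bases in the printed genes that rose and 10 to 14 in those that fell. Of the paralogs, RPL7L1, RPS27L and RPL10L show no such run and RPL22L1 has one of 10 bases.

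Counted over genes with any of their entries, 39 of 54 members (72.2%) had a run of 6 or more C or T that included the start base, against 9.25% of the 27305 genes in the promoter table. Among members that are not paralogs the count was 38 of 48, and among paralogs 1 of 6. With runs counted anywhere from 5 bases before the start to 11 from it, it was 46 members (85.2%) against 31.7%, and the median longest run was 11 bases in members and 4 in all genes. RPL27, RPL38, RPS15 and RPL4 are among those whose longest run lay wholly downstream of the start. RPL38 also had a shorter run of 6 or more that included the start base. Short words of C and T were read on the strand of the gene from 5 bases before the start to 15 from it, and can overlap one another. The word CTTTC was in 46.3% of members and 3.66% of all genes, the word CCTTT in 40.7% and 2.98%, the word CTCTT in 33.3% and 3.35%, the word CTTCC in 33.3% and 5.87% and the word CTTTT in 22.2% and 2.83%. At least one of these 5 words was in 75.9% of members and 14.5% of all genes. In the comparisons with siNTC described later, a run of 6 or more with the start base was held by 11 of 17 members that rose, 14 of 17 that fell and 14 of 20 not past the test. In the whole 300 bases, on both strands, CCGGAAG, a core of the ETS family motif whose reverse contains CTTCC, occurred in 37.0% of members and 12.2% of all genes, and in 8 of 17 members that rose, 3 of 17 that fell and 9 of 20 not past the test. ATGGCG, a core of the YY1 motif, occurred in 38.9% of members and 12.7% of all genes. CACGTG, the E-box that MYC and other factors bind, occurred in 7.41% and 8.77%, and the TATA box word TATAAA in 11.1% and 13.99%. These matches are descriptions of the letters in the window, and no test was made between members of different direction.

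TET enzymes act on methylated cytosines, which in these promoters would lie in CG dinucleotides. The 250 bases upstream of the start held a median of 20 CG dinucleotides in members and 12 in all genes of the table, with 19 in members that rose and 21 in members that fell. The member that rose furthest, RPS13, and the member of the subunits that fell furthest, RPS9, are printed for this reason, with each CG in capitals.
RPS13, chr11:17077668-17077917, minus strand: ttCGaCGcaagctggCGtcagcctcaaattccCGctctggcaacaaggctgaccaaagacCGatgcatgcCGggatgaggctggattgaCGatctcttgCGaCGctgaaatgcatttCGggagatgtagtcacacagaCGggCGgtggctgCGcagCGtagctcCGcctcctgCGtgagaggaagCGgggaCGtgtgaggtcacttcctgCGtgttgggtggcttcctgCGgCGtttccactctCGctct
RPS9, chr19:54200608-54200857, plus strand: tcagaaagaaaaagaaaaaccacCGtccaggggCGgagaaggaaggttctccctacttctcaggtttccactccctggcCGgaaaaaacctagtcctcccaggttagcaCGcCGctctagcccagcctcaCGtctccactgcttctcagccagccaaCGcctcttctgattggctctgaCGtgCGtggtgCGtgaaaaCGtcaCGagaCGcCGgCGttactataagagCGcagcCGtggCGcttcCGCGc
These stretches hold 22 CG in RPS13 and 20 in RPS9, so the pair is similar in this count. Neither sequence carries a measurement of methylation here.

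Some facts of the whole set of arrays bear on every value. Values are log2 signals as the authors deposited them, and array medians lay between 6.22 and 6.27. A signal of 5.21, the 95th percentile of 360 olfactory receptor genes, which are silent outside sensory cells, was taken as background. TET1 stood at 62.3% of siNTC in siTET1, TET2 at 54.4% in siTET2 and TET3 at 47.4% in siTET3, each past the test. Other TET genes moved too: TET1 was at 134% of siNTC in siTET3 and at 81.4% in siTET2, and TET2 was at 72.4% in siTET3, also past the test. Of the embryonic carcinoma markers fixed for this check, 7 of 10 were measured, and all 7 were above background, as were 3 of 6 fibroblast markers (led by THY1), 1 of 3 trophoblast markers, and 0 of 3 for blood and for endoderm. Over the mean of the 3 depletions THY1 (-0.48) and LUM (-0.19) were lower among the fibroblast markers, GATA3 (-0.26) among the trophoblast ones and AFP (-0.51) among the endoderm ones, where FOXA2 (0.25) was higher, and 0 of 3 blood markers passed. The mean signals of AFP and FOXA2 were not above background. The part of other cells in the values of the ribosomal protein genes was not tested. Every comparison with siNTC uses the same 2 siNTC arrays, so a deviation of these arrays enters all of them. No label says that the 2 samples of a group came from separate cultures, and p-values measure the spread between these samples only. In RNA from whole cultures, a smaller number of cells making a transcript and less of it per cell cannot be told apart.

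Ribosomal protein genes did not move together in any depletion. In siTET1, 16 of 65 members rose and 18 fell, where 15.6% of all genes rose and 18.7% fell. In siTET2, 18 rose and 16 fell (14.4% and 21.8% of all genes), and in siTET3 15 rose and 17 fell (13.8% and 22.3%). Over the mean of the 3 depletions, 20 rose and 20 fell (16.5% and 24.2%), and 25 did not pass the test. The tests were limma moderated contrasts fitted on all genes, with a Benjamini-Hochberg adjusted p under 0.05. Median log2 differences from siNTC were 0.01 in siTET1, -0.00 in siTET2 and siTET3, and 0.01 over the mean, beside -0.03, -0.04, -0.02 and -0.03 for all genes.

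The share of members past the test was above that of all genes: 52.3% against 34.3% in siTET1, 52.3% against 36.2% in siTET2, 49.2% against 36.1% in siTET3 and 61.5% against 40.7% over the mean. Members are bright on the array, and bright probes are measured with less scatter. Read against the 2369 genes with a mean signal above 10, of which 64.3%, 67.5%, 65.8% and 70.7% passed, the 51 members above that signal were at 58.8%, 56.9%, 52.9% and 64.7%, in the same order. The excess over all genes was not seen among genes above that signal. The cut does not match the signal of the 2 sets: 31 of these 51 members were above 12, beside 336 of the 2369 genes. Changes were small. The median size of a member's log2 difference was 0.13, 0.11 and 0.14 in the 3 depletions, beside 0.14, 0.15 and 0.15 over all genes, and 11, 11 and 15 members passed with a change of at least 0.32 on the log2 scale (19.3%, 20.5% and 20.9% of all genes did), as did 11 over the mean (19.0%). Of the 25 members not past the test over the mean, 24 had 95% intervals within 0.32 log2 units of 0, the exception being RPL22, whose interval reached down to -0.36.

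Directions were shared between depletions for many members. The same call was made in all 3 depletions for 10 higher and 12 lower members, 33.8% of the list, against 22.5% of all genes. In none of the 3 did 19 members change (29.2%, against 50.4% of all genes), and 0 were called in opposite directions, as were 115 of all 18417 genes. Among genes with a signal above 10, 39.2% of members and 47.0% of all genes had the same call in all 3, and 25.5% and 16.1% changed in none, so the excess was not seen at that signal. The difference was not tested. Since the siNTC arrays are common to the comparisons, these counts are not independent. Counted array by array, all 6 depletion arrays lay above both siNTC arrays for 16 members and below both for 20, which is 55.4% of members and 40.5% of all genes, or 60.8% and 61.5% at a signal above 10.

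**Figure D1:**
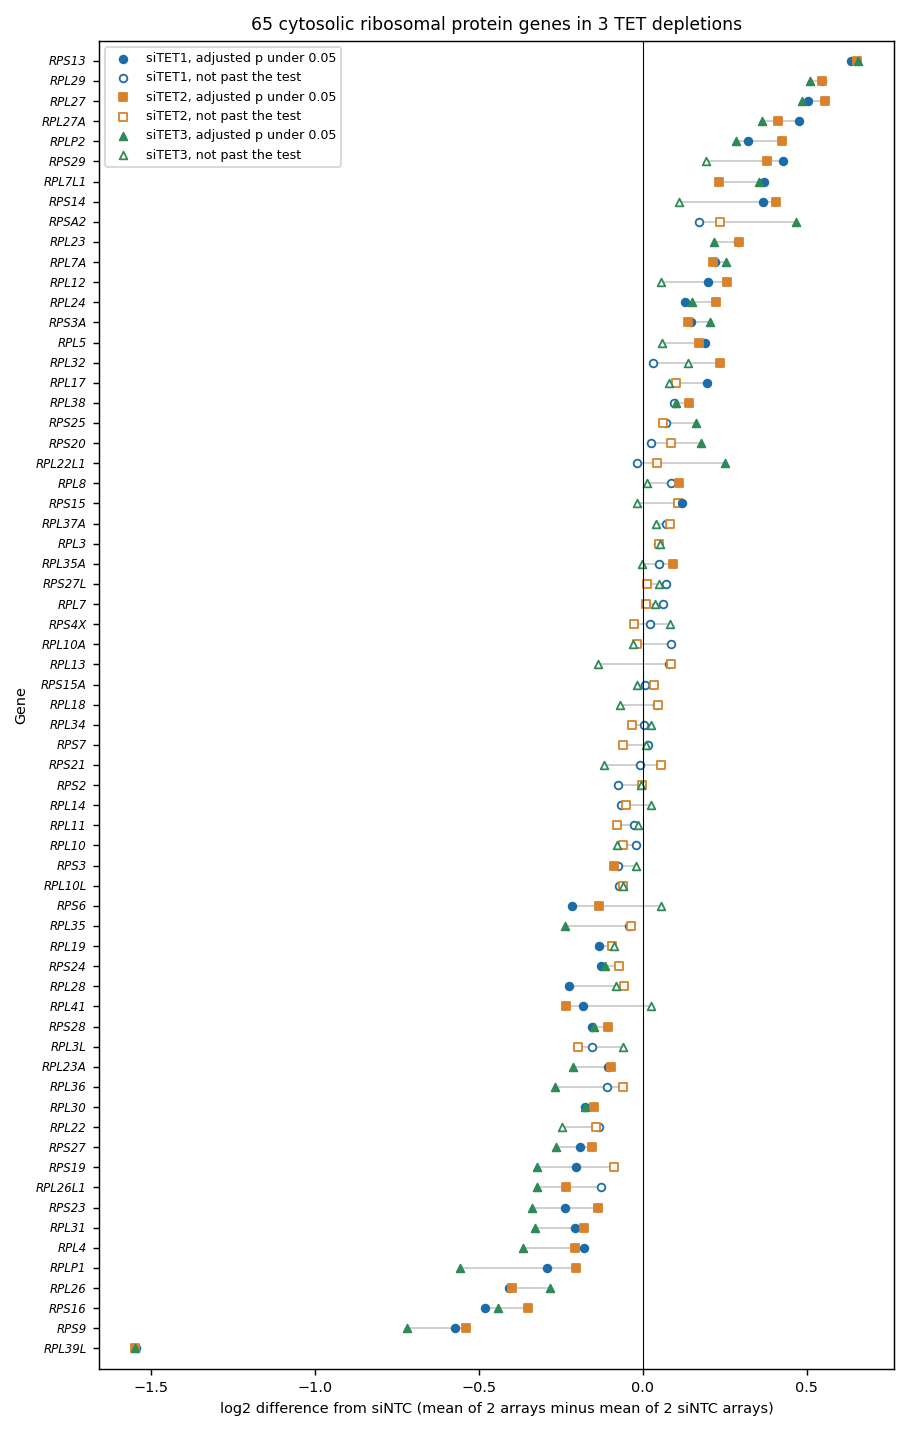
Log2 difference from siNTC (x axis) of each of the 65 genes (y axis, ordered by the mean of the 3 depletions). Circles are siTET1, squares siTET2 and triangles siTET3, each the mean of 2 arrays minus the mean of the 2 siNTC arrays, filled where the adjusted p was under 0.05, and grey lines span the 3 values. Most genes lie near 0 with as many to the right as to the left, and RPL39L stands apart at the low end, where 5 of its 6 depletion arrays were not above background. The 3 depletions lie close together for RPS13, RPL29 and RPL27 and are spread for RPLP1, RPS14 and RPSA2.

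RPL39L had the largest difference of any member. It encodes a paralog of RPL39, a very small protein of the exit tunnel, and is known from testis, pluripotent cells and some tumours. Signals were 7.05 and 6.39 in siNTC, 5.19 and 5.16 in siTET1, 5.17 and 5.18 in siTET2, and 5.09 and 5.25 in siTET3. Thus both siNTC arrays were above background and 5 of the 6 depletion arrays were not. Because the depletion arrays were at background, the fall is a bound: RPL39L was at least 2.85-fold lower in siTET1 and in siTET2, at least 2.81-fold lower in siTET3 and at least 2.84-fold lower over the mean (adjusted p = 9.1e-07). The siNTC arrays differed from each other by 0.66, the widest gap within a group among members, where the next widest in siNTC was 0.25 in RPSA2. Its 24 nearest measured genes on chromosome 3 had a median log2 difference of -0.05, with 10 higher and 6 lower. RPL39 itself is represented on the array by clusters with several symbols and is not among the members, and RPL39L has no entry in the promoter table.

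Among small subunit genes, 6 rose and 7 fell over the mean, of 21. RPS9, whose protein lies near the entry of the mRNA channel, gave signals of 12.04 and 12.01 in siNTC, 11.40 and 11.50 in siTET1, 11.49 and 11.47 in siTET2, and 11.25 and 11.36 in siTET3. All 6 depletion arrays were below both siNTC arrays. The log2 difference was -0.57 ± 0.04 (SE) in siTET1, -0.54 ± 0.04 in siTET2 and -0.72 ± 0.04 in siTET3, and over the mean RPS9 was at 65.4% of siNTC (adjusted p = 3.2e-08). RPS16, a protein whose tail reaches the decoding centre, had 11.02 and 11.16 in siNTC against 10.55, 10.67, 10.73, 10.75, 10.55 and 10.75 in the depletion arrays, again without overlap. It fell by 0.43 ± 0.05 on the log2 scale, to 74.5% of siNTC (adjusted p = 2.3e-05). RPS13 moved the other way and rose further than any other member. Its signals were 12.42 and 12.64 in siNTC, 13.15 and 13.18 in siTET1, 13.17 and 13.20 in siTET2, and 13.09 and 13.29 in siTET3, a rise of 0.65 ± 0.05 or 1.57-fold (adjusted p = 6.6e-07). Upstream sequences of RPS9 and RPS13 are those printed above. RPS23, an accuracy factor of the decoding centre, fell to 84.8% of siNTC, RPS19, a gene mutated in Diamond-Blackfan anaemia, to 86.7%, and RPS27 to 86.8%, with siTET3 the lowest group in each. RPS29 rose 1.26-fold over the mean from 7.49 and 7.41 in siNTC, with 7.56 and 7.73 in siTET3 the smallest rise, which did not pass there (adjusted p = 0.069).

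Of the 34 large subunit genes, 11 rose and 10 fell over the mean. RPL29 signals were 10.47 and 10.55 in siNTC, 11.01 and 11.11 in siTET1, 11.06 and 11.05 in siTET2, and 10.95 and 11.10 in siTET3. Every depletion array was above both controls, and the gene rose 1.45-fold (log2 0.53 ± 0.04, adjusted p = 5.2e-07). RPL27 and RPL27A, which despite their names encode different proteins, rose 1.43-fold and 1.33-fold. RPL27 had 9.58 and 9.50 in siNTC and between 9.95 and 10.11 elsewhere, and RPL27A 11.14 and 11.08 in siNTC and between 11.45 and 11.60 elsewhere. These values are of the brightest RPL27A cluster, and of its other clusters one was at 0.26 over the mean and one at 0.06, with -0.12 in siTET1, neither of the last 2 past the test. RPL23, a protein known to bind MDM2, rose to 120.3% of siNTC, with 9.92 and 9.97 in siNTC and 10.14 to 10.24 in the depletion arrays. RPL7A rose 1.17-fold, RPL24 and RPL12 1.12-fold. RPL26, at the rim of the exit tunnel, fell the furthest of the subunit, from 11.71 and 11.60 in siNTC to 11.20, 11.29, 11.37, 11.14, 11.32 and 11.42 in the depletion arrays (log2 -0.36 ± 0.05, adjusted p = 0.00013). RPL31 fell to 84.7% of siNTC and RPL4 to 84.0%.

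RPL30 is a large subunit gene for which the study lists PCR primers, and its level was read here on the arrays. Signals were 13.27 and 13.36 in siNTC, 13.12 and 13.16 in siTET1, 13.17 and 13.16 in siTET2, and 13.14 and 13.14 in siTET3. All depletion arrays were below both siNTC arrays. The differences were -0.18 ± 0.03 (adjusted p = 0.00081), -0.15 ± 0.03 (0.0026) and -0.18 ± 0.03 (0.00080), and over the mean RPL30 was at 89.0% of siNTC (adjusted p = 0.00019). The 3 depletions did not differ from one another past the test, with differences of 0.03, 0.00 and -0.03. Without the intensity trend in the fit, the siTET2 difference was no longer past the test.

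The P-stalk genes parted. RPLP1 and RPLP2 encode the acidic proteins that form the flexible stalk as pairs and recruit elongation factors. RPLP1 signals were 12.07 and 12.01 in siNTC, 11.73 and 11.77 in siTET1, 11.82 and 11.86 in siTET2, and 11.49 and 11.47 in siTET3, a fall to 78.4% over the mean (adjusted p = 5.8e-07). RPLP2 had 12.25 and 12.24 in siNTC, 12.55 and 12.57 in siTET1, 12.65 and 12.68 in siTET2, and 12.48 and 12.57 in siTET3, a rise of 1.27-fold (adjusted p = 6.7e-07). Neither gene overlapped between siNTC and the depletion arrays. RPLP0, which anchors the stalk, was not analysed here.

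**Figure D2:**
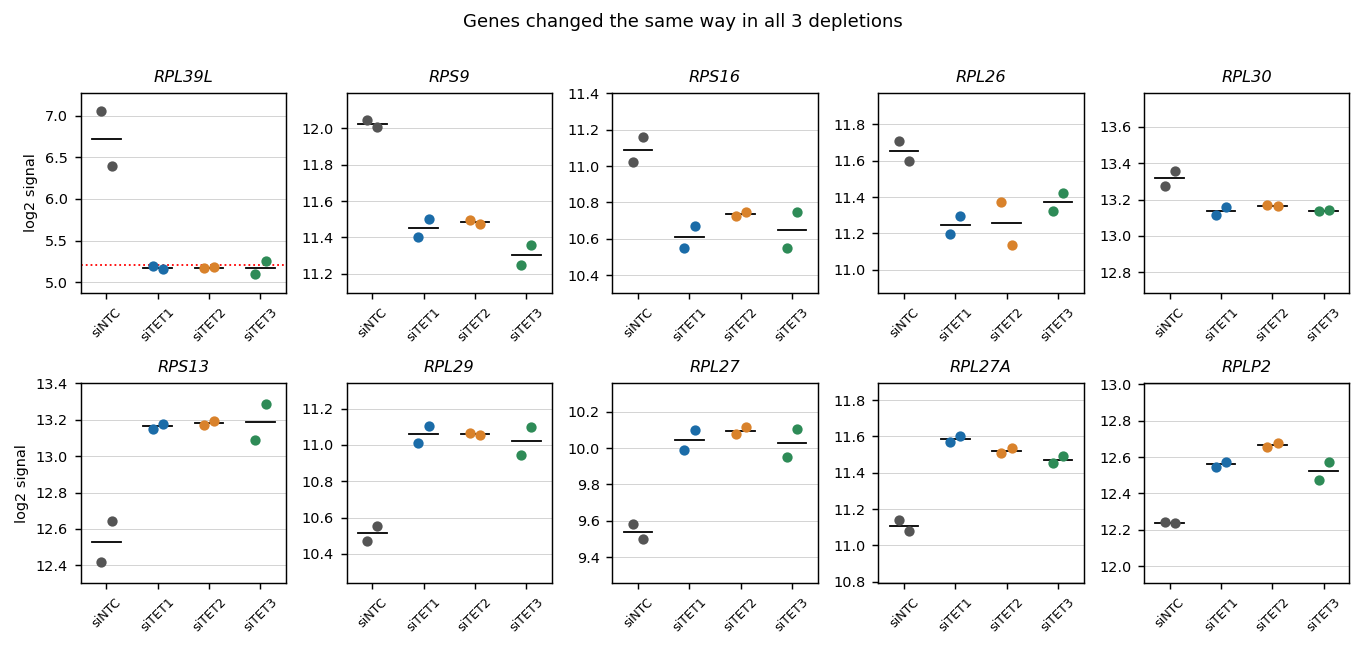
Log2 signal (y axis) of 10 genes on each of the 8 arrays by group (x axis), with points for arrays and lines for the mean of 2 arrays. Each panel has its own y axis range, the same span in all but RPL39L, where it is wider and the dotted line is the background of 5.21. The siNTC points lie above all depletion points for RPL39L, RPS9, RPS16, RPL26 and RPL30 and below all of them for the other genes.

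The 8 paralogs were mixed. Over the mean, RPL7L1 and RPSA2 rose, RPL39L and RPL26L1 fell, and the remaining 4 did not pass. RPL7L1, a factor of large subunit assembly, had 10.93 and 10.79 in siNTC against 11.21, 11.25, 11.09, 11.09, 11.24 and 11.19 in the depletion arrays, a rise to 124.7% of siNTC (adjusted p = 1.3e-05). RPSA2, a close copy of the laminin receptor gene RPSA, gave 8.33 and 8.07 in siNTC, 8.36 and 8.38 in siTET1, 8.55 and 8.32 in siTET2, and 8.67 and 8.67 in siTET3. Only siTET3 passed against siNTC (log2 0.47 ± 0.09, adjusted p = 0.00092). RPL26L1, a near copy of RPL26, had 9.85 and 9.82 in siNTC and 9.40 to 9.76 elsewhere. Its differences were -0.13 in siTET1 (not past the test), -0.24 in siTET2 and -0.32 in siTET3. These values are of its brighter cluster. The other cluster was at -0.08 over the mean, and passed neither there nor in any single depletion. The siTET2 call for RPL26L1 was lost in 5 of the alternatives described below. RPL22L1 passed against siNTC in siTET3 and in no other depletion, with 8.70 and 8.94 against 8.59 and 8.55 in siNTC (log2 0.25 ± 0.07, adjusted p = 0.015), and that call was lost without siTET3 replicate 2, where the value was 0.13. RPL22, its parent gene and a known repressor of it, had -0.25 ± 0.11 in siTET3 (adjusted p = 0.086). RPS27L, a paralog of RPS27, had a difference of 0.04 ± 0.09 over the mean, and RPL3L, a muscle paralog, -0.14 ± 0.08. RPL10L, a testis gene, was not above background in any array. Near-identical copies may share probe targets, so values of RPSA2, RPL26L1 and RPL26 are uncertain in how they divide between the copies.

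Comparisons between depletions asked which members answered differently to the 3 siRNA pools. Between siTET2 and siTET1, 2 members passed, beside 6.46% of all genes (2.33% higher and 4.13% lower in siTET2). RPL28 was higher in siTET2 by 0.17 ± 0.04 and RPL32 by 0.21 ± 0.06. The RPL28 call was lost in 5 of the alternatives described below and the RPL32 call in 8. Between siTET3 and siTET1, 6 were higher and 11 lower in siTET3, 26.2% of members beside 13.8% of all genes (3.82% higher and 9.94% lower). Between siTET3 and siTET2, 3 were higher and 17 lower in siTET3, 30.8% beside 12.2% (4.94% higher and 7.24% lower). With a change of at least 0.32 on the log2 scale, 0, 0 and 1 members passed, beside 2.17%, 5.26% and 4.15% of all genes. Among genes with a signal above 10, the shares were 1.96% of members and 17.9% of genes for siTET2 against siTET1, 27.5% and 31.4% for siTET3 against siTET1, and 37.3% and 32.3% for siTET3 against siTET2, so any excess over all genes was small or absent at that signal. The siTET3 arrays are shared by both comparisons.

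RPLP1 had the widest separation, with its siTET3 arrays at 11.49 and 11.47, below every other array, and differences of -0.27 ± 0.04 from siTET1 (adjusted p = 0.00038) and -0.36 ± 0.04 from siTET2 (adjusted p = 5.3e-05). RPS14, a gene of the 5q deletion syndrome, gave 12.52 and 12.64 in siNTC, 12.91 and 12.98 in siTET1, 13.00 and 12.97 in siTET2, and 12.62 and 12.76 in siTET3. It rose in siTET1 and siTET2, by 0.37 and 0.41, and siTET3 was lower than siTET1 by a log2 difference of -0.26 ± 0.05 (adjusted p = 0.0032). RPL12, a protein at the base of the stalk, followed the same order, with 12.59 and 12.60 in siNTC, 12.77 to 12.87 in siTET1 and siTET2, and 12.63 and 12.68 in siTET3. RPL35 was near the controls in siTET1 and siTET2 (11.30 to 11.32, against 11.37 and 11.33) and lower in siTET3, at 11.08 and 11.14. RPL13 and RPL36 were also lower in siTET3 than in both other depletions, by -0.22 and -0.22 for RPL13 and by -0.16 and -0.21 for RPL36. Under the alternatives described below, the RPL13 calls were lost in 3 and 4 settings, and the RPL36 calls in 8 and 3.

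Another group of members was higher in siTET3 than in another depletion. RPS6, the target of S6 kinase, had 12.77 and 12.93 in siNTC, 12.62 and 12.65 in siTET1, 12.74 and 12.69 in siTET2, and 12.87 and 12.94 in siTET3. Its fall passed in siTET1 (-0.22 ± 0.05) and in siTET2 (-0.13 ± 0.05), and siTET3 was higher than siTET1 by 0.27 ± 0.05 (adjusted p = 0.0020). The siTET2 call for RPS6 was lost when either siTET1, either siTET2 or siNTC replicate 2 was left out. RPL41, which encodes the smallest ribosomal protein, had 13.66 and 13.52 in siNTC, 13.39 and 13.42 in siTET1, 13.41 and 13.30 in siTET2, and 13.62 and 13.61 in siTET3, and siTET3 was higher than siTET2 by 0.26 ± 0.04 (adjusted p = 0.0021). Without siNTC replicate 1, its fall in siTET1 was no longer past the test. A dimmer cluster of RPL41 was lower in all 3 depletions, siTET3 included (-0.37, -0.35 and -0.30). RPS20 rose in siTET3 (0.18 ± 0.03), where both arrays were above all others. RPS4X was higher in siTET3 than in siTET2 by 0.11 ± 0.03 (adjusted p = 0.044), a call lost in 7 of the alternatives. Without the intensity trend in the fit, 0, 1 and 1 members passed in the 3 comparisons between depletions.

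**Figure D3:**
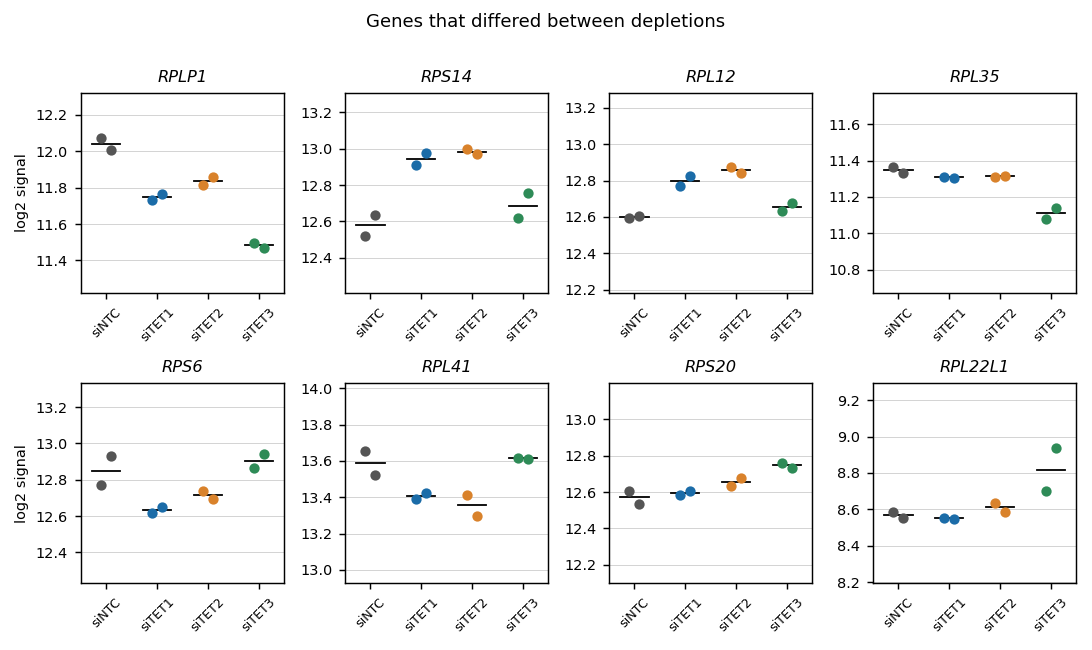
Log2 signal (y axis) of 8 genes on each array by group (x axis), with points for arrays and lines for the mean of 2 arrays, all panels spanning the same range in log2 units. In siTET3 the points of RPLP1, RPS14, RPL12 and RPL35 lie below those of siTET1 and siTET2, and the points of RPS6, RPL41, RPS20 and RPL22L1 lie above them.

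Members lie on all chromosomes but 7, 13 and 21, and the genes around some of them moved too. On chromosome 15 the 412 measured genes had a median log2 difference of -0.31 over the mean of the 3 depletions, against medians between -0.12 and 0.07 on the other numbered chromosomes and X. Members there are RPL4, RPLP1 and RPS27L. Neighbours were taken as the 12 measured genes above background on each side that are not members, 24 in all except at chromosome ends and gaps. Genes were placed by their position in RefSeq, and the position of a cluster itself was not read. RPL4 fell by 0.25 with neighbours at -0.27, and RPLP1 fell by 0.35 with neighbours at -0.25, 17 of 24 of them lower. RPS27L was at 0.04, not past the test, with neighbours at -0.38. RPL31 on chromosome 2 fell by 0.24 with neighbours at -0.28, whereas RPL37A on the same chromosome was at 0.06, not past the test, with neighbours at -0.42. RPS25 was at 0.10 with neighbours at -0.21. Upward shifts occurred as well: the neighbours of RPL5 on chromosome 1 were at 0.21, 13 higher and 1 lower. The brightest RPL5 cluster rose by 0.14. The other RPL5 clusters were at -0.003 and 0.07 over the mean, neither past the test. The cluster at -0.003 was lower in siTET3 (-0.125). RPL35A was at 0.05, not past the test, with 13 neighbours at 0.28, 9 higher and 0 lower. By contrast the neighbours of the members that moved furthest were close to 0: 0.05 for RPS9, -0.01 for RPS16, 0.00 for RPL26, 0.03 for RPS13, -0.06 for RPL29 and -0.05 for RPL27. The part of a shared shift of neighbours in the values of RPL4, RPLP1, RPL31 and RPL5 was not tested.

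**Figure D4:**
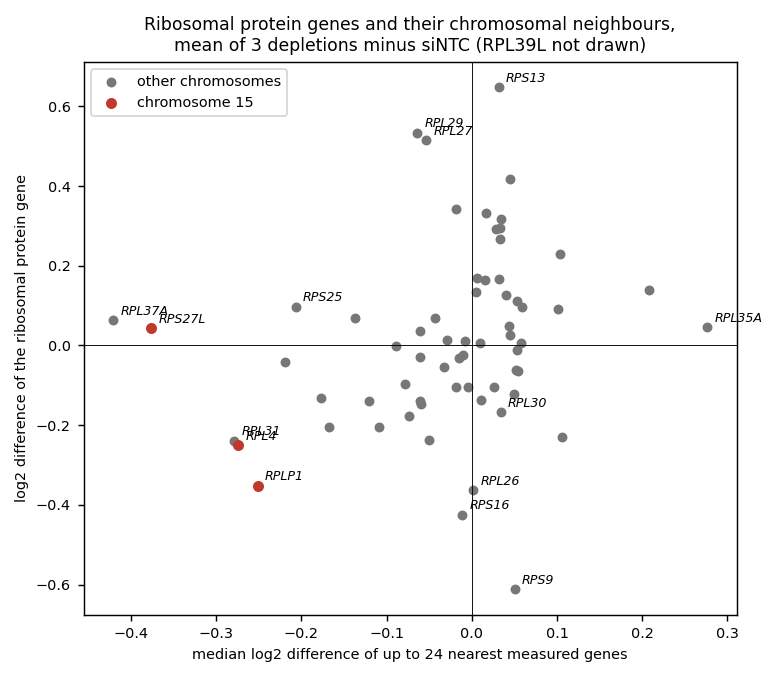
Log2 difference of each ribosomal protein gene (y axis) against the median log2 difference of up to 24 neighbouring genes (x axis), both the mean of 3 depletions minus siNTC, with chromosome 15 in red and RPL39L, whose change is a bound, not drawn. RPL4, RPLP1 and RPL31 lie low on both axes, RPS27L and RPL37A low on the x axis only, and RPS9, RPS13, RPL29 and RPL27 far from 0 on the y axis only.

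Several ribosomal protein genes carry small nucleolar RNAs (snoRNAs) in their introns, which guide modification of ribosomal RNA and are released when the intron is processed. Inside 12 members, 18 snoRNA genes were measured by a cluster of their own, matched by position in RefSeq, which lists no strand for them here. Over the mean, 12 snoRNAs rose, 1 fell and 5 did not pass the test, while the same comparison called 16.5% of all genes higher and 24.2% lower. Clusters with a snoRNA symbol beside a host symbol are not in these counts, were not tested and went both ways. In siTET1, siTET2 and siTET3, that of SNORD24 and RPL7A differed from siNTC by -0.93, -0.60 and -0.54. That of SNORD68 and RPL13 was at -0.81, -0.08 and 0.11. Higher ones included SNORD36A and SNORD36C with RPL7A (0.36, 0.53 and 0.27) and SNORD73A with RPS3A (0.63, 0.70 and 0.78). SNORD54 within RPS20 rose by 1.21 ± 0.08 on the log2 scale, from 7.29 and 6.92 in siNTC to between 8.09 and 8.47, and RPS20 by 0.10. SNORD36B within RPL7A rose by 1.01 ± 0.05, from 8.72 and 8.92 to between 9.73 and 9.97, and RPL7A by 0.23. In both, all depletion arrays of the snoRNA were above both controls. SNORD21 within RPL5 rose by 0.70 ± 0.07 and SNORA3A within RPL27A by 0.63 ± 0.02. The brightest clusters of these hosts were at 0.14 for RPL5 and 0.42 for RPL27A. SNORD15B rose by 0.62 ± 0.05 within RPS3, which was at -0.06, not past the test, and SNORA10 rose by 0.53 ± 0.05 within RPS2, at -0.03 and not past the test.

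Some pairs went opposite ways. SNORA65 within RPL12 fell by 0.39 ± 0.05, from 8.44 and 8.40 in siNTC to 7.80 and 7.84 in siTET1, 7.91 and 8.002 in siTET2, and 8.29 and 8.34 in siTET3. The brightest cluster of RPL12 rose by 0.17. Its other clusters were at 0.14 and 0.13, both past the test, and at 0.06. That last cluster had a signal of 6.84 and did not pass. Within RPL23A, which fell by 0.14, SNORD4A rose by 0.44 and SNORD42A by 0.21, and SNORD4B was at 0.02. In all, host and snoRNA were called the same way in 6 pairs and opposite ways in 3. Each host was read by its brightest single-symbol cluster. Whether that cluster reads the host locus or another copy was not tested. Total RNA was labelled, and whether a cluster read the mature snoRNA or the intron was not tested.

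**Figure D5:**
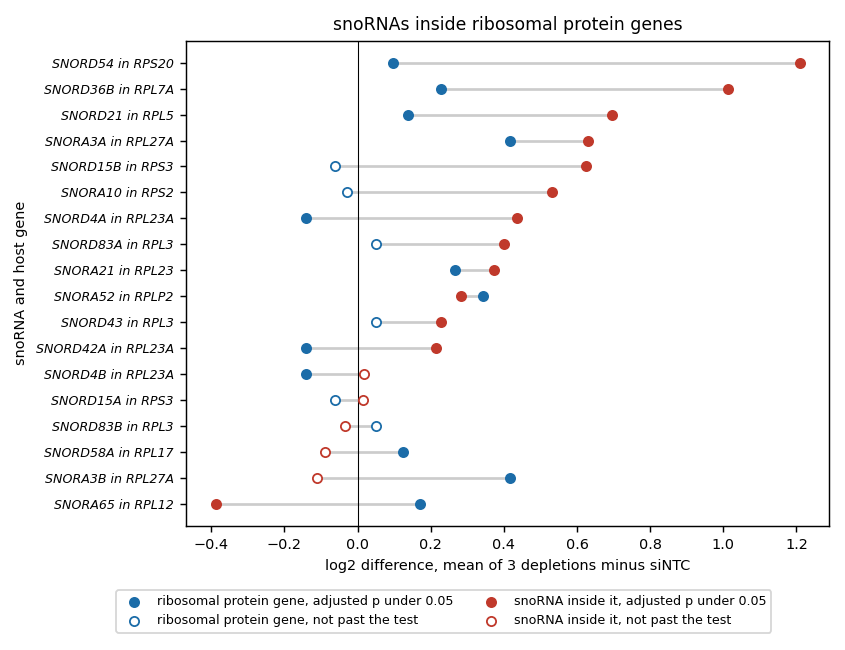
Log2 difference, mean of 3 depletions minus siNTC (x axis), of 18 snoRNAs (red) and the ribosomal protein gene that contains each (blue), one pair to a row, filled where the adjusted p was under 0.05. Red points of the upper 12 rows lie above 0 by 0.21 to 1.21, and the hosts lie between -0.14 and 0.42.

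Different clusters of one member mostly agreed in sign. Of 23 members with several single-symbol clusters, 19 had one sign over all of them for the mean of the 3 depletions, and 0 had clusters called in opposite directions. Sizes could differ. The brighter cluster of RPS25, used above, was at 0.10 and the other at 0.69, the 5 clusters of RPS3A spanned 0.16 to 0.61, the 3 of RPL13 spanned 0.01 to 0.39 and the 3 of RPL27A 0.06 to 0.42. RPS9 was lower on both clusters (-0.61 and -0.46), as was RPLP1 (-0.35 and -0.47), and RPL29 higher on both (0.53 and 0.43). RPL41 had 3 clusters, of which a pair held identical values on every array and so count as 1. Ribosomal protein genes have many processed pseudogenes, and clusters may read them.

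Genes that work with the ribosomal proteins were read from fixed lists, over the mean of the 3 depletions, in which 16.5% of all genes were higher and 24.2% lower, with a median of -0.03, and 70.7% of genes with a signal above 10 passed. Translation factors were 14 higher and 9 lower of 34 measured (67.6% called), near the share of bright genes, and their median signal was 11.6. They included EIF3B (0.53), EIF3F (0.50) and EIF3K (0.50), subunits of the initiation factor that binds the small subunit, and EEF1B2 (-0.53), the exchange factor of elongation factor 1. Other transcripts known to carry a TOP tract were 7 higher and 6 lower of 17 (76.5% called, median signal 12.2), with HNRNPA1 at 0.71 and NAP1L1 at 0.42, and EIF3F and EEF1B2 are in this list too. Ribosome biogenesis factors were 10 higher and 24 lower of 57 (59.6% called, median signal 10.01). SBDS, which releases EIF6 from the new large subunit together with EFL1, was at -1.02 ± 0.05 (adjusted p = 6.2e-09), EFL1 at -0.46, WDR12 at -0.50 and MRTO4 at -0.35. Genes of RNA polymerases I and III, which make the ribosomal RNAs, were 3 higher and 11 lower of 28 (50.0% called), with POLR3F at -0.54, POLR3K at -0.51, GTF3C2 at -0.33 and POLR1F at 0.49.

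Among regulators and sensors of ribosomal protein synthesis, 7 were higher and 11 lower of 28 (64.3% called). DDIT4, an inhibitor of mTOR signalling, was at 1.41 ± 0.07 (adjusted p = 4.9e-09), EIF4EBP1, the cap-binding inhibitor downstream of mTOR, at -0.52, CDKN2A at -0.51 and MAX at -0.47. The mitochondrial ribosomal protein genes, a separate family that serves the mitochondrial ribosome, were 16 higher and 37 lower of 76 (69.7% called, median signal 9.55), with a median log2 difference of -0.08 beside -0.03 for all genes, and MRPL46 (-1.08), MRPL2 (-0.77), MRPS33 (-0.70) and MRPS11 (-0.62) at the low end. The cytosolic set had 20 of 65 lower and a median of 0.01. Whether the families differ was not tested. None of the context lists was separated by chromosome. The 412 measured genes of chromosome 15 had a median of -0.31, and the part of that shift in the values of listed genes was not tested. FAU and RPL36AL, ribosomal protein genes whose names fall outside the rule, were both lower, at -0.17 ± 0.06 and -0.29 ± 0.04.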

How the data were processed

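Total RNA (250 ng) from NCCIT cells, 2 samples each of siNTC, siTET1, siTET2 and siTET3, had been labelled with biotin and read on Affymetrix Human Gene 1.0 ST arrays. Deposited values are log2 intensities per transcript cluster, normalized by the authors. The submitters' processing notes name Partek, and how it was set (version, background, summary of probes) is not given in the sources. The number of arrays limits the precision. Clusters were named through the platform annotation: of 33297 clusters, 19460 had 1 symbol, 1754 several and 12083 none. The brightest single-symbol cluster stood for a gene (18417 genes, 12746 or 69.2% of them above background). All 8 arrays were fitted in limma 3.58.1 (R 4.3.3) with lmFit and eBayes with an intensity trend, 4 groups and no covariate. Contrasts were each depletion, and the mean of the 3, against siNTC, and each pair of depletions, with Benjamini-Hochberg adjustment over all genes at 0.05. Errors are standard errors of the contrast. Data of 18417 genes were simulated with the same groups and independent noise, with a small set of genes above background changed in 1 depletion. Of these, 98%, 99% and 93% changed by 1.5-fold and 68%, 68% and 62% changed by 1.25-fold were recovered in siTET1, siTET2 and siTET3. In the real comparisons 34.3%, 36.2% and 36.1% of all genes were called. The adjusted threshold depends on that share, so the recovery rates need not hold for these data or for the members. Replicate numbers gave no pairing, so no block was used.

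Members and context lists were chosen with earlier results of these data known. Members named with values were RPL30, RPL39L, all paralogs, those on chromosome 15, the 10 largest changes in each direction over the mean and the 5 largest in each comparison, and for each context list up to 4 by size of change; RPL12, RPL22, RPL24, RPL7A, RPS25, RPS3A, RPL34, RPL37A, RPS27, RPL5, RPL35A, RPL38, RPS15 and the snoRNAs with their hosts were named after their values were seen. RPSA2, listed as a pseudogene in older annotation and as protein-coding in RefSeq, was counted with the paralogs. Alternatives were quantile normalization, a filter on background, averaging or separating a gene's clusters, no intensity trend, only the arrays compared, members off chromosome 15, a minimum change of 0.32 on the log2 scale, the replicate block and leaving out each array. Sequences came from RefSeq promoter entries (GRCh38.p14); RPL23, RPL23A, RPL30, RPL39L, RPL3L, RPL5, RPL7, RPL8, RPS15A, RPS2 and RPS20 had none. Figures were drawn with matplotlib, and no deposited column was left unused.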

Additional observations from a re-analysis of the deposited data

How the results depend on the processing

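Counts of members past the test kept within 1.5 times of the reported value under quantile normalization, the filter on background, the mean of clusters and the replicate block, with the exceptions given here. A minimum change of 0.32 on the log2 scale left 11, 11 and 15 members in siTET1, siTET2 and siTET3, 11 over the mean of the 3, and 0, 0 and 1 in siTET2 against siTET1, siTET3 against siTET1 and siTET3 against siTET2. Without the intensity trend, siTET2 against siNTC had 21, and the comparisons between depletions had 0, 1 and 1 in the same order. For siTET2 against siTET1, quantile normalization gave 4, the arrays of the comparison alone 6 and each cluster by itself 1, and for siTET3 against siTET1 the arrays of the comparison alone gave 11. Leaving out 1 array at a time gave 28 to 39 members in siTET1, 25 to 34 in siTET2, 30 to 34 in siTET3 and 33 to 43 over the mean, and 0 to 3, 6 to 21 and 7 to 22 between depletions. With the replicate number as a block, which does not pair these samples (correlations of deviations between -0.05 and 0.25), the counts were 36, 35, 35 and 41 against siNTC and 2, 19 and 20 between depletions. For single members named by rule, 3358 values under an alternative kept their direction and side of the threshold, 140 lost the call, 65 gained it and none reversed. Lost calls included RPL26 in siTET3 without siNTC replicate 1 (-0.23), RPL26L1 in siTET3 with the mean of its clusters (-0.17), RPSA2 over the mean without siNTC replicate 2 (0.16) and RPL30 in siTET2 without the trend (-0.15). With 2 arrays a group, the cause of these shifts was not tested, and changes under 0.32 on the log2 scale are those most easily missed.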
